A study of Mus musculus with 6 samples.

Results

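The cytokine gene Tnf, the NF-kB feedback inhibitors Tnfaip3 and Nfkbia, the neutrophil chemokines Cxcl1 and Cxcl2, the prostaglandin synthesis genes Ptgs2 and Ptges, and the lectin receptor Clec4e form a group of 8 inflammatory genes among the 27378 genes counted in this study of mouse brain immune cells. The members were chosen by name, with earlier results from the same libraries known, for their levels in microglia against macrophages and in the 3 groups of mice. Those levels are therefore given as descriptions with no test, and tests are kept for other cell types and for other genes of the same pathways. CD45+ cells, the leukocytes sorted by a surface protein that they share, were made into 6 single-cell libraries by 10x 3' v3 chemistry. Libraries 1 and 2 of the Rbpj-deleted tumour group came from gliomas with knockout of both Trp53 and Rbpj, libraries 1 and 2 of the control tumour group from gliomas with Trp53 knockout and wild-type Rbpj, and libraries 1 and 2 of the healthy group from brains wild-type for both. The early gliomas were found by the GFP of a Rosa-CAG Cre reporter and dissected out. The series design gives pools of 9 Rbpj-deleted tumours, 15 control tumours and 9 healthy brains, whereas the extraction protocol places the cells of each mouse in 1 well, so it is not known how many mice stand behind a library. The Cre driver, the cells that lost Rbpj, and the age and sex of the mice are not given in the sources used here.

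TNF is made as a membrane protein, is shed by the protease ADAM17 and signals through its receptors to the NF-kB transcription factors. NF-kB switches on Tnf itself and also its own brakes: Nfkbia encodes I-kappa-B-alpha, which holds NF-kB in the cytoplasm, and Tnfaip3 encodes A20, which edits ubiquitin chains on the signalling complexes. Cxcl1 and Cxcl2 encode ligands of the receptor Cxcr2, which draw neutrophils into tissue. Ptgs2 encodes cyclooxygenase-2 and Ptges the inducible microsomal synthase that turns its product into prostaglandin E2. Clec4e encodes Mincle, a receptor for damaged cells and for glycolipids that signals through Fcer1g, Syk and Card9. Microglia and macrophages are among the known sources of these products in inflamed brain.

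The promoters of 5 members are shown because they hold the sequence features that set the members apart from one another. All 8 members had an entry in the RefSeq promoter table (build GRCm38.p6). Printed are the bases upstream of the first listed start, read 5′ to 3′ on the strand of the gene, without bases that the GENCODE vM21 annotation counts as exon. Capitals mark a match to the kappa-B consensus or to GGAATTTCC, the core of the site that NF-kB binds, except in Tnf, where they mark TATAAA. The stretches are chr10:19015411-19015530 (Tnfaip3, minus strand, inside an intron of a longer GENCODE transcript), chr12:55492648-55492767 (Nfkbia, minus), chr5:90891125-90891240 (Cxcl1, plus), chr5:90903779-90903870 (Cxcl2, plus) and chr17:35202008-35202127 (Tnf, minus).
Tnfaip3: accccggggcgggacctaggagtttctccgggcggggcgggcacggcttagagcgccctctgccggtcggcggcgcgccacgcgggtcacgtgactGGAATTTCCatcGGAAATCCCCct
Nfkbia: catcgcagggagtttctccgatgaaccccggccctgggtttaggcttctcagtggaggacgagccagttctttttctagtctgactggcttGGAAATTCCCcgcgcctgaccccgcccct
Cxcl1: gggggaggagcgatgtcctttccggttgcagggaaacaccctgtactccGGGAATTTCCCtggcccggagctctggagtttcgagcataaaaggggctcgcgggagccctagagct
Cxcl2: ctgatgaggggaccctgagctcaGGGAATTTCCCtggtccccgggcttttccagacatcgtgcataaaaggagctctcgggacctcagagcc
Tnf: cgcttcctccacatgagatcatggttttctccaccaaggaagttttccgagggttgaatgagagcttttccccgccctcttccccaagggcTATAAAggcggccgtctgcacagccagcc

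Within 250 bases upstream of the start and on either strand, GGAATTTCC was found in 4 of the 8 members and in 94 of 32851 RefSeq promoters (0.286%). Its positions, counted back from the start, were -24 to -16 in Tnfaip3, -29 to -21 in Nfkbia, -70 to -62 in Cxcl1 and -96 to -88 in Cxcl2. The same 4 promoters held the kappa-B consensus, which occurred in 2382 of all promoters (7.25%) and overlaps GGAATTTCC in Nfkbia, Cxcl1 and Cxcl2. TATAAA lay at -29 to -24 in both Tnf and Clec4e, a position typical of a TATA box, and at -225 to -220 in Tnfaip3, and 12.4% of all promoters held it somewhere in the window. Ptgs2 held TTGCGCAA, a palindrome bound by C/EBP factors, at -69 to -62, and 0.164% of all promoters held it. TGACTCA, the AP-1 motif, was found among the members in Tnfaip3 and in 4.46% of all promoters. A match describes letters in this window only. The genes themselves lie at mm10 chromosome 17:35199381-35202007 (Tnf), 10:19000910-19015657 (Tnfaip3), 12:55489410-55492647 (Nfkbia), 5:90891241-90893115 (Cxcl1), 5:90903871-90905938 (Cxcl2), 1:150100031-150108227 (Ptgs2), 2:30889471-30929863 (Ptges) and 6:123281789-123289870 (Clec4e). Cxcl1 and Cxcl2 are neighbours, and 7.59% of the 31-base words of Cxcl2 also occur in other genes, against at most 0.357% for the other members, so a small part of its reads could be shared.

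Library totals were 49252701 and 32731006 counts in Rbpj-deleted tumours, 18217310 and 17978360 in control tumours, against 55229031 and 17430763 in healthy brain. Of 17362 barcodes, 11223 were kept as cells, and clusters were named from marker genes. Microglia-like cells numbered 1092 and 533 in Rbpj-deleted tumours, 223 and 231 in control tumours, against 3428 and 1512 in healthy brain. Monocyte/macrophage-like cells numbered 614 and 742, 222 and 64, and 552 and 289 in the same order of groups. The class "monocyte/macrophage-like" was mostly border macrophages in healthy brain, since border macrophage markers summed to 14230 and 13390 CPM there, against 2479 and 1866 CPM in Rbpj-deleted tumours and 1604 and 2617 CPM in control tumours. Microglia markers were present in the microglia-like cells of every library, at 17150 and 18050 CPM in Rbpj-deleted tumours, 18900 and 19680 CPM in control tumours and 32250 and 31980 CPM in healthy brain. CPM are the summed counts of a class in a library, scaled to a total of 1000000. Rbpj itself was read at 62.3 and 45.4 CPM in Rbpj-deleted tumours, 89.6 and 98.1 CPM in control tumours and 33.4 and 61.6 CPM in healthy brain over all kept cells. Since the cells that lost Rbpj are not given, these levels in immune cells do not check the deletion. The labels do not say that the libraries of a group are independent cultures or animals, so every error and p-value below covers library-to-library spread alone, part of which may be technical.

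Tnf stood higher in tumours than in healthy brain in both myeloid classes. In microglia-like cells Tnf was at 708.5 and 189.5 CPM in Rbpj-deleted tumours, 340.6 and 270.3 CPM in control tumours, and 37.35 and 42.61 CPM in healthy brain. All 4 tumour libraries lay above both healthy ones, and the 2 Rbpj-deleted libraries lay on either side of the control libraries. The log2 difference from healthy brain was 3.66 ± 0.71 in Rbpj-deleted tumours and 3.04 ± 0.70 in control tumours (SE from the edgeR fit, n = 2 libraries per group). Tnf in monocyte/macrophage-like cells was at 341.8 and 152.9 CPM in Rbpj-deleted tumours, 259.4 and 419.9 CPM in control tumours, and 65.94 and 99.55 CPM in healthy brain. The tumour and healthy libraries again did not overlap, with log2 differences of 1.83 ± 0.41 for Rbpj-deleted and 2.34 ± 0.42 for control tumours. Between Rbpj-deleted and control tumours the log2 difference was 0.62 ± 0.64 in microglia-like and -0.51 ± 0.40 in monocyte/macrophage-like cells, and the groups overlapped in both. Without Rbpj-deleted library 1 the microglia value was -0.68, and without library 2 it was 1.30.

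The share of cells with at least 1 Tnf count followed the same order. Among microglia-like cells it was 61.17% and 30.39% in Rbpj-deleted tumours, 53.81% and 39.83% in control tumours, against 13.21% and 11.9% in healthy brain. B-like cells, taken as a class low in Tnf, gave 1.961% over all libraries. Their median depths were 1602 to 5168 counts per cell, against 5051 to 9002 in microglia-like cells. At these unequal depths the microglial shares lay above that pooled background. The B-like share was not low in every library, since Rbpj-deleted library 1 gave 28.57%, on 7 cells. With cells thinned to 2000 counts, and those below that depth left out (199 and 53 in Rbpj-deleted tumours, 30 and 56 in control tumours, 207 and 247 in healthy brain), the microglial shares were 16.88% to 41.99% in Rbpj-deleted tumours, 26.29% to 31.61% in control tumours and 6.147% to 6.166% in healthy brain. The gap between tumour and healthy libraries was thus also present at equal depth per cell.

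**Figure D1:**
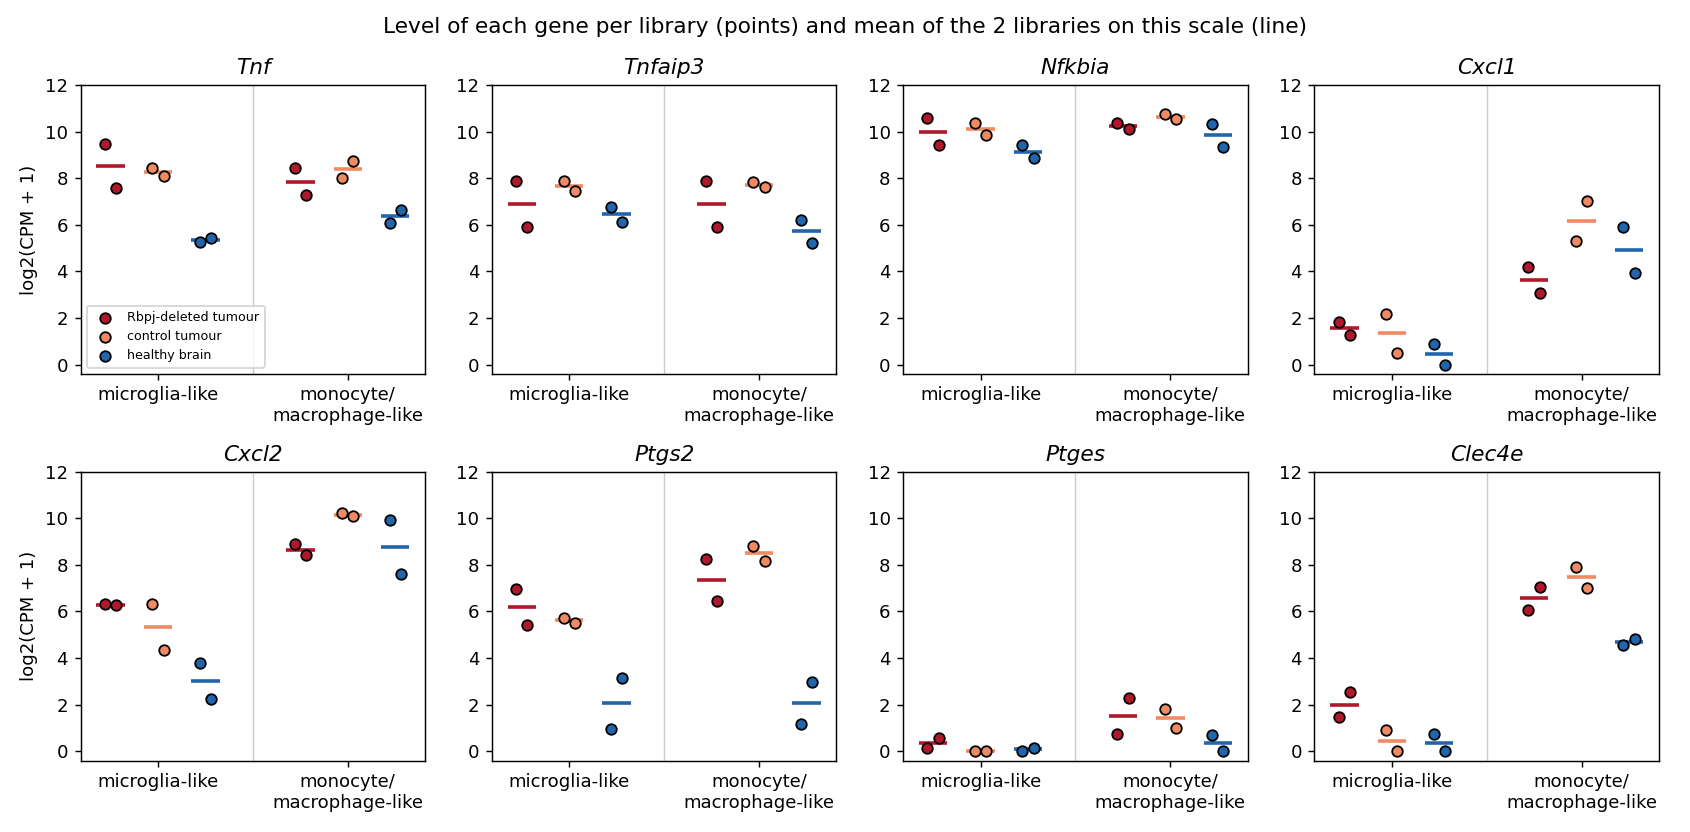
Each panel shows 1 gene, with log2(CPM + 1) on the vertical axis and the 2 myeloid classes side by side. Points are libraries (red Rbpj-deleted tumour, orange control tumour, blue healthy brain) and lines the mean of both libraries. Tnf and Ptgs2 sit above healthy brain in all tumour libraries of both classes, Cxcl2 and Clec4e sit higher in monocyte/macrophage-like cells, and Ptges is the lowest panel.

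Within the same library, Tnf was split about evenly between the classes in tumours. Its microglia-like level was 2.073 and 1.239 times the monocyte/macrophage-like level in Rbpj-deleted tumours, 1.313 and 0.6437 times in control tumours, and 0.5664 and 0.428 times in healthy brain. Over the 4 tumour libraries the log2 difference, microglia-like minus monocyte/macrophage-like, was 0.16 ± 0.21, and in healthy brain it was -1.0 ± 0.31. Leaving out the clusters with no marker of their own class among their 10 leading genes, which are the tumour-type microglia clusters and macrophage cluster 1, gave -0.82 in the tumour libraries.

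The feedback inhibitors had smaller fitted log2 differences from healthy brain than Tnf in both tumour groups and both classes. For Tnfaip3 in monocyte/macrophage-like cells, however, the gap lay within the SE. Its differences there were 1.67 ± 0.71 in Rbpj-deleted and 2.25 ± 0.73 in control tumours. Those of Tnf were 1.83 ± 0.41 and 2.34 ± 0.42. Tnfaip3 in microglia-like cells was at 234.5 and 58.54 CPM in Rbpj-deleted tumours, 230.9 and 175.9 CPM in control tumours, and 107.5 and 68.79 CPM in healthy brain. Both control libraries lay above healthy brain (log2 difference 1.30 ± 0.74), whereas Rbpj-deleted library 2 lay below both healthy libraries (0.90 ± 0.73 for the group). Tnfaip3 in monocyte/macrophage-like cells was at 237.3 and 58.54 CPM in Rbpj-deleted tumours, 227.6 and 195.1 CPM in control tumours, and 72.53 and 36.37 CPM in healthy brain, with the same low value in Rbpj-deleted library 2. The 2 classes gave nearly the same Tnfaip3 level within each tumour library, with a log2 difference of -0.16 ± 0.09. It was 0.13 with mixed barcodes, those holding markers of 2 cell types, kept. Without the clusters lacking a marker of their own class it was -0.72.

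Nfkbia was counted in 70.73% to 82.05% of microglia-like cells in every library, so most of these cells held it in all groups. It stood at 1524 and 677.6 CPM in the microglia-like cells of Rbpj-deleted tumours, 1333 and 920.7 CPM in those of control tumours, and 687.5 and 463.2 CPM in those of healthy brain. The log2 difference from healthy brain was 1.09 ± 0.43 and 1.07 ± 0.43 for Rbpj-deleted and control tumours, and only the control libraries stood clear of the healthy ones. Nfkbia in monocyte/macrophage-like cells was at 1333 and 1116 CPM in Rbpj-deleted tumours, 1719 and 1469 CPM in control tumours, and 1277 and 651.9 CPM in healthy brain. Both Rbpj-deleted libraries lay below both control libraries there, at a log2 difference of -0.42 ± 0.36, less than 2 SE. With the library split described below for the chemokines, that difference was 0.56.

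Immediate early genes, a list of 20 genes that tissue dissociation also induces, are given beside these levels. Their summed level in microglia-like cells was 29740 and 14790 CPM in Rbpj-deleted tumours, 32670 and 34740 CPM in control tumours, and 41000 and 32340 CPM in healthy brain. Rbpj-deleted library 2, the library lowest in Tnf, Tnfaip3 and Nfkbia among the tumour libraries, was also lowest in this list, and the part of the list in those values was not tested. Rbpj-deleted library 1, highest in Tnf and Nfkbia, lay below both control and both healthy libraries in the list, and the control and healthy libraries overlapped. The list summed in monocyte/macrophage-like cells to 25600 and 14950 CPM in Rbpj-deleted tumours, 22650 and 23290 CPM in control tumours, and 42560 and 26720 CPM in healthy brain.

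Of the 2 myeloid classes, monocyte/macrophage-like cells held most of the neutrophil chemokines. Cxcl2 there was at 477.2 and 341.0 CPM in Rbpj-deleted tumours, 1185 and 1105 CPM in control tumours, and 959.3 and 196.4 CPM in healthy brain. Both Rbpj-deleted libraries lay below both control libraries (log2 difference -1.53 ± 0.69), and the healthy libraries were so far apart that they spanned the Rbpj-deleted ones (-0.25 ± 0.68). In microglia-like cells Cxcl2 was at 78.5 and 76.7 CPM in Rbpj-deleted tumours, 79.85 and 19.31 CPM in control tumours, and 12.83 and 3.675 CPM in healthy brain. All tumour libraries were above both healthy libraries, by log2 3.31 ± 0.94 in Rbpj-deleted and 2.61 ± 0.95 in control tumours. Microglia-like cells held less Cxcl2 than monocyte/macrophage-like cells of the same library in 6 of 6 libraries, at 0.01337 to 0.2249 of their level. The log2 difference was -3.69 ± 0.30 over the tumour libraries. It was -2.44 with mixed barcodes kept and -6.19 without the clusters lacking a marker of their own class, a spread the SE does not cover.

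Cxcl1 was a rarer transcript of the same cells. Its level in monocyte/macrophage-like cells was 17.01 and 7.402 CPM in Rbpj-deleted tumours, 38.31 and 128.7 CPM in control tumours, and 59.03 and 14.09 CPM in healthy brain, counted in 2.022% to 9.375% of cells. The Rbpj-deleted libraries lay below the control libraries (log2 difference -2.76 ± 1.01) and overlapped with healthy brain (-1.36 ± 0.98). Within the clusters filled mostly by tumour libraries the tumour groups overlapped, at 17.31 and 7.625 CPM in Rbpj-deleted and 14.06 and 131.4 CPM in control tumours, since 89 of the Cxcl1 counts of control library 1 came from 26 cells of healthy-type clusters. In microglia-like cells Cxcl1 had 24 and 6 counts in Rbpj-deleted tumours, 8 and 1 in control tumours, against 18 and 0 in healthy brain. Over all libraries 0.3419% of microglia-like cells held a count, no more than the 0.4149% of T-like cells, which was 2 of 482. The highest library was control library 1 with 0.8969%, or 2 cells. After thinning to 2000 counts, microglia-like cells gave 0.3359% and 0.4167% in Rbpj-deleted and 0% in both control libraries. T-like cells gave 0% in Rbpj-deleted tumours, on 51 and 89 cells, too few to tell such shares apart. The lower chemokine level of Rbpj-deleted tumours depended on how the libraries were set against each other. In 1 alternative a term paired healthy library 1 with the control tumours and healthy library 2 with the Rbpj-deleted ones, a split seen earlier in these libraries. The Cxcl2 difference was then 0.77 and the Cxcl1 difference -0.69. With that term each tumour group is set against a single healthy library, at 959.3 and 196.4 CPM for Cxcl2. The values therefore take in the gap between those libraries. Over 15 alternatives the Cxcl2 difference kept its sign in 14 and the Cxcl1 difference in 15.

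Ptgs2 had the largest ratio of tumour to healthy mean CPM of the 8 members in both classes, 48.75 in Rbpj-deleted and 91.83 in control tumours among monocyte/macrophage-like cells and 19.12 and 11.03 among microglia-like cells. Ptgs2 in monocyte/macrophage-like cells was at 308.3 and 85.32 CPM in Rbpj-deleted tumours, 453.3 and 288.2 CPM in control tumours, and 1.256 and 6.819 CPM in healthy brain. It was counted in 53.91% and 28.3% of these cells in Rbpj-deleted tumours, 60.36% and 37.5% in control tumours, against 0.5435% and 1.73% in healthy brain. The log2 differences from healthy brain were 5.96 ± 1.02 for Rbpj-deleted and 6.95 ± 1.04 for control tumours, and the difference between Rbpj-deleted and control tumours was -0.98 ± 0.74 with overlapping libraries. In microglia-like cells Ptgs2 was at 125.3 and 42.29 CPM in Rbpj-deleted tumours, 51.64 and 45.05 CPM in control tumours, and 0.9539 and 7.809 CPM in healthy brain. These were again all above healthy brain, by log2 4.62 ± 1.24 and 3.75 ± 1.25 for Rbpj-deleted and control tumours. The microglia-like level was below the monocyte/macrophage-like level in every tumour library, by log2 -2.18 ± 0.10 over the 4. That difference was -1.72 with mixed barcodes kept and -6.65 without the clusters lacking a marker of their own class, a spread the SE does not cover.

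Ptges, the enzyme that follows cyclooxygenase-2 on the way to prostaglandin E2, was almost absent from both classes. Microglia-like cells gave 1 and 2 counts in Rbpj-deleted tumours, 0 and 0 in control tumours, against 0 and 1 in healthy brain. Monocyte/macrophage-like cells gave 6 and 29 counts in Rbpj-deleted tumours, 9 and 1 in control tumours, against 2 and 0 in healthy brain. The gene did not pass the low-count filter of any fit, so 7 of the 8 members have fitted differences in the 2 myeloid classes and Ptges has counts only.

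In the tumour libraries Clec4e was the most macrophage-restricted of the fitted members. In healthy brain its log2 difference, microglia-like minus monocyte/macrophage-like, was -5.66 ± 0.46. Those of Cxcl1 and Cxcl2 were -6.22 ± 0.62 and -6.02 ± 0.49 there. Clec4e in monocyte/macrophage-like cells was at 66.08 and 132.3 CPM in Rbpj-deleted tumours, 241.1 and 126.8 CPM in control tumours, and 22.92 and 26.82 CPM in healthy brain. All tumour libraries lay above healthy brain, by log2 2.28 ± 0.45 in Rbpj-deleted and 3.21 ± 0.46 in control tumours, and the tumour groups overlapped (-0.93 ± 0.41). In microglia-like cells it was at 1.796 and 4.779 CPM in Rbpj-deleted tumours, 0.8679 and 0 CPM in control tumours, and 0.6677 and 0 CPM in healthy brain. Over all libraries 0.4702% of microglia-like cells held a count, no more than the 0.6224% of T-like and 0.6536% of B-like cells. Rbpj-deleted library 2 stood apart, with a count in 14 of 533 microglia-like cells (2.627%, exact 95% interval 1.443% to 4.368%, counting error only) and 0.625% after thinning. The T-like cells of that library had 0 of 93, which allows a share of up to 3.226%, so its microglial share could not be told from background at this depth. The log2 difference between the classes in tumour libraries was -6.96 ± 0.31. It was -3.65 with mixed barcodes kept and -10.18 without the clusters lacking a marker of their own class. The SE does not cover that choice of cells.

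The class sums mix cell states, and those states differed between groups. Microglia-like cells of clusters filled mostly by tumour libraries (8, 14, 21, 25 and 26) made up 90.7% and 88.7% of the class in Rbpj-deleted tumours, 58.7% and 86.1% in control tumours, against 0.933% and 1.72% in healthy brain. Members and pathway genes were kept out of the genes used for clustering. Tnf reached 780.9 CPM in cluster 25, which Csf1, Egr3 and Ccl4 led and to which Rbpj-deleted library 1 gave 645 cells and Rbpj-deleted library 2 gave 114. It was at 401.4 CPM in the cycling cluster 21, 332.9 CPM in cluster 14, which held 89 and 169 cells of the control tumours, and 131.5 CPM in cluster 8, led by Spp1 and Apoc1. Of the members, Tnf was among the 10 leading genes of cluster 25 and Ptgs2 among those of macrophage cluster 27, which held 135 and 20 cells of the control tumours and none of the other groups.

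Tnf was also higher in the tumour cells of the remaining, healthy-type microglia clusters. In clusters 3, 4, 5, 6, 7, 10 and 11 it stood at 239.0 and 132.2 CPM in Rbpj-deleted tumours (102 and 60 cells), 276.8 and 140.6 CPM in control tumours (92 and 32 cells), and 37.01 and 41.83 CPM in healthy brain (3396 and 1486 cells). For Ptgs2 the same clusters gave 0 and 4.56 CPM in Rbpj-deleted tumours, 14.87 and 0 CPM in control tumours, and 0.9664 and 6.854 CPM in healthy brain. Control library 1 lay above both healthy libraries, and the groups overlapped. With 32 to 102 tumour cells per library, a small rise and none could not be told apart. Most Ptgs2 of tumour microglia-like cells thus came from the tumour-type clusters, at 132.8 and 44.38 CPM in Rbpj-deleted and 74.11 and 49.75 CPM in control tumours.

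Among macrophages, clusters 1, 19, 20 and 27 held 95.1% and 95.4% of the class in Rbpj-deleted tumours, 88.3% and 90.6% in control tumours, against 5.25% and 15.2% in healthy brain. Clec4e was highest in cluster 19, led by the monocyte genes Plac8 and Ifitm6, at 430.2 CPM, and stood at 221.1 CPM in cluster 27, 115.6 CPM in cluster 20 and 11.97 CPM in the border macrophage cluster 0. The few healthy cells in tumour-type macrophage clusters, 29 and 44 in number, had Clec4e at 464.2 and 95.9 CPM, against 66.3 and 136.3 CPM in Rbpj-deleted and 253.7 and 129.4 CPM in control tumours. These values compare different clusters, since 28 and 24 of the healthy cells were in cluster 19, whereas clusters 1 and 20 held most Rbpj-deleted cells and cluster 27 took 135 and 20 control cells. In cluster 19 alone Clec4e was at 631.1 and 422.7 CPM in Rbpj-deleted tumours (26 and 84 cells), 483.6 and 389.0 CPM in control tumours (24 and 5 cells), and 480.7 and 143.7 CPM in healthy brain, and the groups overlapped. Over clusters 1, 19, 20 and 27 together, Ptgs2 was at 315.1 and 87.89 CPM in Rbpj-deleted tumours and 481.5 and 294.2 CPM in control tumours. In healthy brain it was at 24.01 and 0 CPM, values resting on 3 and 0 counts. Cxcl2 in the same clusters was at 485.4 and 347.0 CPM in Rbpj-deleted tumours, 1083 and 1124 CPM in control tumours, and 216.1 and 188.7 CPM in healthy brain. These values too compare different mixes of clusters. Cluster 27, of control cells alone, held Ptgs2 at 562.7 CPM and Cxcl2 at 1093 CPM. Levels of these genes by group within a single cluster are not given here.

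**Figure D2:**
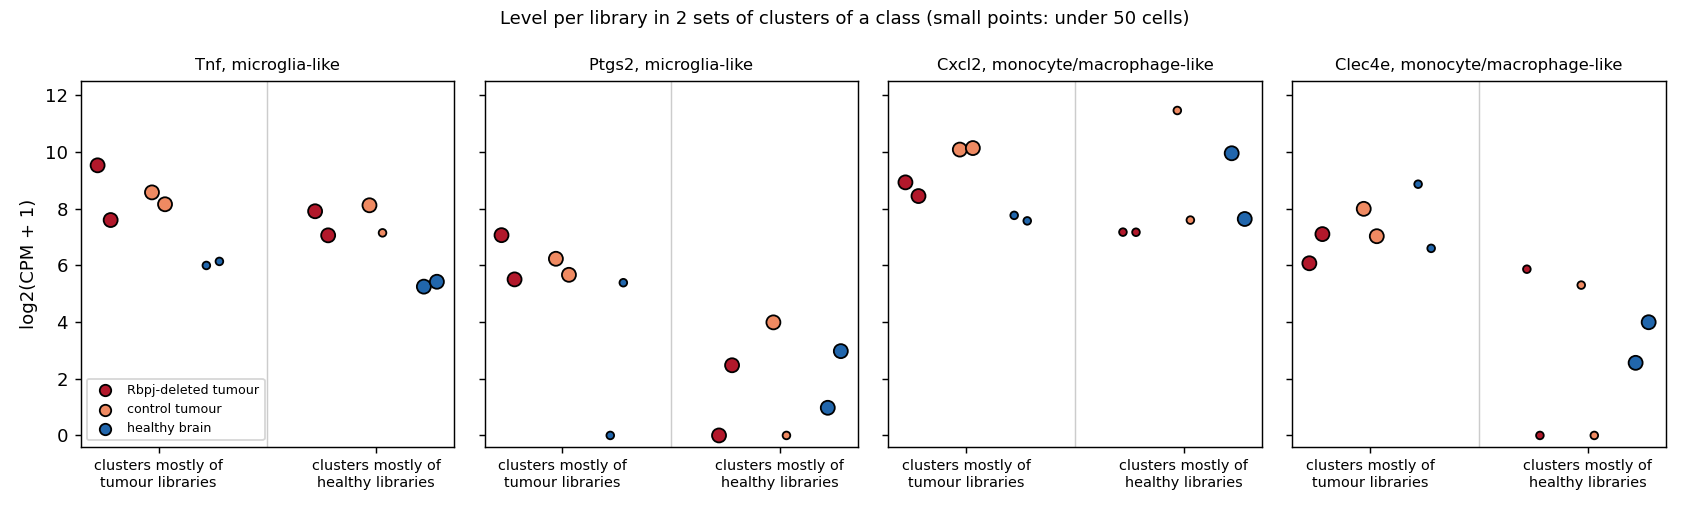
The vertical axis is log2(CPM + 1) per library within 2 sets of clusters of a class, those filled mostly by tumour and those filled mostly by healthy libraries. Colours are the groups, and small points rest on under 50 cells. Tnf of microglia-like cells is higher in tumour than in healthy libraries in both sets, Ptgs2 of tumour microglia-like cells is high mainly in the tumour set, and Clec4e of healthy libraries reaches 464.2 and 95.9 CPM in the tumour set, on 29 and 44 cells.

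Counted over the members, microglia-like cells of Rbpj-deleted tumours had 5 of 8 with both libraries above both healthy libraries, where 20.9% of all genes tested did so. Control tumours had 5 of 8 above healthy brain in microglia-like cells (20.5% of all genes). In monocyte/macrophage-like cells 4 of 8 members stood above healthy brain in Rbpj-deleted tumours (18.8% of all genes) and 7 of 8 in control tumours (19.1%). The members were chosen for these contrasts, so nothing is read from the counts. Between Rbpj-deleted and control tumours, 2 members stood higher in microglia-like cells, Clec4e and Ptges, both on a handful of counts (16.7% of all genes), and 3 stood lower in monocyte/macrophage-like cells, Cxcl1, Cxcl2 and Nfkbia (14.5%). The 2 tumour groups are compared with the same healthy libraries, so their differences from healthy brain are not independent of each other.

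The order of the cell classes in the tumour libraries differed by member. Tnf had medians of 305.5 CPM in microglia-like and 300.6 CPM in monocyte/macrophage-like cells, 151.0 CPM in dendritic-like, 55.47 CPM in T-like, 44.67 CPM in NK-like and 1.976 CPM in B-like cells, and the first 3 overlapped in range. Tnfaip3 ran the other way, with 315.5 CPM in T-like and 279.6 CPM in NK-like cells ahead of 211.3 CPM in monocyte/macrophage-like, 203.4 CPM in microglia-like and 112.8 CPM in dendritic-like cells, all 5 overlapping, and 31.46 CPM in B-like cells below them. Nfkbia was high in all 6 of these classes, between 771.6 CPM in NK-like and 1629 CPM in dendritic-like cells. Cxcl2 stood at 791.1 CPM in monocyte/macrophage-like cells with a lowest library of 341.0 CPM, above the highest dendritic-like library of at least 10 cells at 337.6 CPM, and Clec4e at 129.6 CPM with no other class overlapping it among the 6 named here. Ptgs2 was at 298.2 CPM in monocyte/macrophage-like, 175.5 CPM in dendritic-like, 48.34 CPM in microglia-like and 13.47 CPM in T-like cells. The 27 neutrophil-like cells of all libraries, too few to split by group, held Cxcl2 at 9654 CPM, Clec4e at 1294 CPM, Ptgs2 at 515.6 CPM and Tnf at 252.3 CPM.

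**Figure D3:**
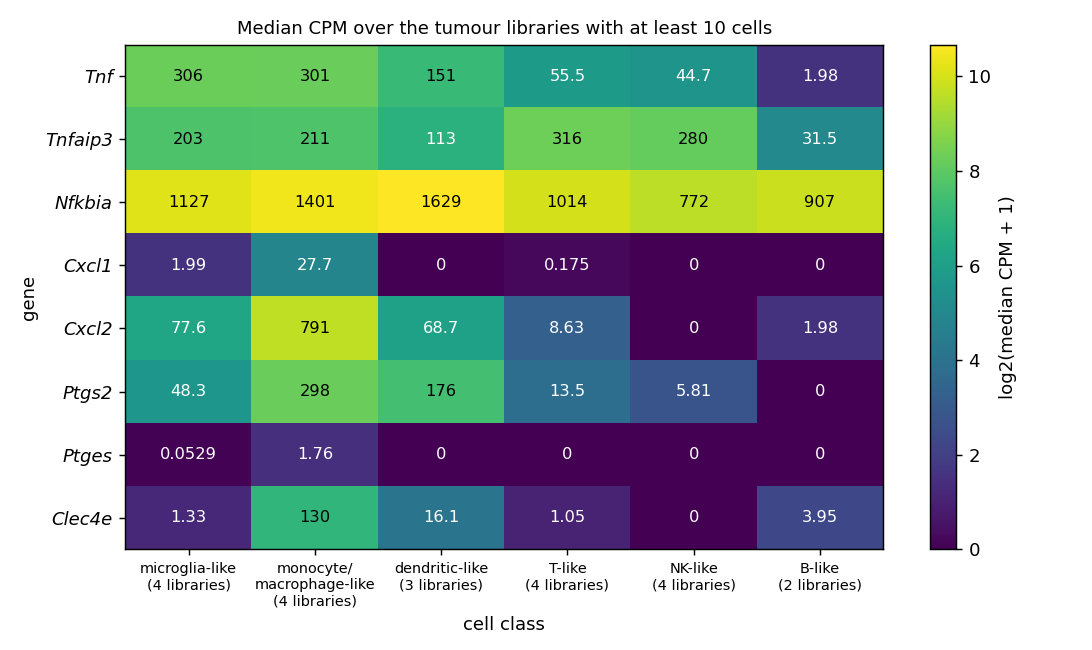
Rows are the 8 genes and columns 6 cell classes; each tile gives the median CPM over the tumour libraries with at least 10 cells of the class, coloured by log2(median CPM + 1). Tnf is shared by microglia-like and monocyte/macrophage-like cells (305.5 and 300.6 CPM), Tnfaip3 is highest in T-like cells (315.5 CPM), and Cxcl2 and Clec4e stand out in monocyte/macrophage-like cells (791.1 and 129.6 CPM).

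Markers of neutrophils and T cells in the macrophage sums are given beside these levels. The 11 neutrophil markers summed to 141.7 and 188.7 CPM in monocyte/macrophage-like cells of Rbpj-deleted tumours, 98.03 and 139.6 CPM in those of control tumours, and 146.0 and 198.6 CPM in those of healthy brain. S100a9 was at 0 in control library 1 and Ly6g at 0 in 4 of 6 libraries. The part of such RNA in the macrophage levels was not tested. T cell markers summed to 185.3 and 71.33 CPM in Rbpj-deleted tumours, 319.2 and 153.5 CPM in control tumours, and 49.61 and 36.82 CPM in healthy brain in the same cells, with Tnf at 34.25 to 82.35 CPM in tumour T-like cells themselves.

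Dendritic-like cells, which the choice of members did not use, allowed a test. Of the 8 members 6 passed the low-count filter, and only Clec4e passed the test in any of the 3 comparisons. No member passed between Rbpj-deleted tumours and healthy brain, where 7.99% of all genes were called; without Rbpj-deleted library 1 the count was 1 and without library 2 it was 2. Clec4e was at 23.16 and 16.06 CPM in Rbpj-deleted tumours, 0 CPM in control library 1, and 8.416 and 9.165 CPM in healthy brain. Control library 2 had 8 dendritic-like cells, under the minimum of 10, and was left out, so the control group was 1 library that the fit assumes to vary like the others. The mean of Rbpj-deleted tumours was at least 7.708-fold higher and that of healthy brain at least 3.455-fold higher than the limit of 3 counts in control library 1. The edgeR adjusted p was 0.0154 for Rbpj-deleted against control tumours (0.935% of all genes were called higher) and 0.0442 for control tumours against healthy brain (5.99% were called lower). These values rest on the removal of mixed barcodes: with those kept, the log2 difference was -7.05 for Rbpj-deleted against control tumours and 4.78 for control tumours against healthy brain. The left-out control library 2 held Clec4e at 13.37 CPM, in 1 of its 8 cells. Without either Rbpj-deleted library the first call was lost, and without either healthy library the second, and each count of called members was then 0.

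Ptgs2 in dendritic-like cells was at 305.9 and 58.41 CPM in Rbpj-deleted tumours, 175.5 CPM in control library 1, and 2.104 and 6.874 CPM in healthy brain. Every tumour library was above both healthy ones, yet the log2 differences of 5.48 ± 1.71 and 5.39 ± 1.83 did not pass (edgeR adjusted p = 0.289 and 0.276 for Rbpj-deleted and control tumours). Tnf in dendritic-like cells was at 321.8 and 124.1 CPM in Rbpj-deleted tumours, 151.0 CPM in control library 1, and 229.3 and 364.3 CPM in healthy brain. Its log2 difference from healthy brain was -0.26 ± 0.44 in Rbpj-deleted tumours (edgeR adjusted p = 0.816) and -0.85 ± 0.56 in control tumours (0.422). Border macrophage markers in these cells summed to 237.7 and 189.8 CPM in Rbpj-deleted tumours, 196.7 CPM in control library 1, and 2948 and 2864 CPM in healthy brain, and microglia markers to 733.8 and 1272, 232.4, and 4866 and 2477 CPM in the same order. The part of such foreign RNA in the healthy dendritic-like levels was not tested. Pathway genes passed in both directions in dendritic-like cells. Of 60 fitted, 7 were higher and 7 lower in Rbpj-deleted tumours than in healthy brain, and 10 higher and 11 lower in control tumours. The NF-kB set had 5 of 21 higher in Rbpj-deleted and 7 of 21 in control tumours than in healthy brain and none lower (4.52% and 4.75% of all genes were called higher, 3.47% and 5.99% lower). Traf1 rose by log2 3.44 ± 0.39 in Rbpj-deleted (edgeR adjusted p = 2.3e-08) and 3.35 ± 0.42 in control tumours (2.91e-07), and Relb by 2.04 ± 0.33 (1.47e-05) and 1.86 ± 0.37 (0.000319). The prostaglandin and leukotriene set had 5 of 14 lower in each tumour group and none higher, and Hpgd was lower by log2 -4.50 ± 0.47 in Rbpj-deleted (edgeR adjusted p = 2.1e-09) and -3.19 ± 0.52 in control tumours (1.48e-05). The Mincle set had 1 of 9 lower in Rbpj-deleted and 5 of 9 in control tumours, and Zfp36l2, which destabilises AU-rich messengers, was lower in Rbpj-deleted tumours (-1.15 ± 0.30, 0.00853). Between Rbpj-deleted and control tumours 3 pathway genes passed, all higher: Clec4a2 (3.99 ± 0.49, edgeR adjusted p = 8.87e-07), Clec4n (3.68 ± 0.52, 1.41e-05) and Clec4a3 (2.90 ± 0.47, 0.00017), and they rest on the same single control library as the Clec4e call.

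In T-like cells of the 4 tumour libraries 5 members were fitted and none passed (0.126% of all genes did). Tnf was at 53.6 and 82.35 CPM in Rbpj-deleted and 57.33 and 34.25 CPM in control tumours (log2 difference 0.47 ± 0.34, edgeR adjusted p = 0.894). Tnfaip3 was at 391.5 and 159.1 CPM in Rbpj-deleted and 284.2 and 346.9 CPM in control tumours (-0.33 ± 0.40, edgeR adjusted p = 0.953). At an unadjusted p under 0.05 the count was also 0, and DESeq2 called 0. Without control library 1 the count of called members was 1.

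Of the 78 other genes of these pathways, listed in 6 sets, 77 were in the count table and 63 to 65 passed the filter in each myeloid fit. The list was drawn up with earlier results of these data known. In monocyte/macrophage-like cells 14 of 64 were called higher and 7 lower in Rbpj-deleted tumours than in healthy brain (edgeR adjusted p under 0.05, where 8.14% and 5% of all genes were called). In control tumours 18 were higher and 6 lower (9.19% and 6.06% of all genes). With library totals in place of TMM scaling, which moved the median of all genes by -0.32, the control split was 13 and 8. In microglia-like cells 9 of 63 were higher and 5 lower in Rbpj-deleted tumours (8.57% and 3.75% of all genes), and 3 higher and 0 lower in control tumours (3.01% and 0.425%). The Rbpj-deleted split in microglia-like cells was 7 and 7 with library totals. Without the tumour-type microglia clusters, which lack a microglia marker among their 10 leading genes, the microglia counts were 0 in Rbpj-deleted and 1 in control tumours. Single libraries weighed on these counts. In microglia-like cells the Rbpj-deleted count of 14 was 6 without control library 1, control library 2 or healthy library 1 and 8 without healthy library 2, and the control count of 3 was 1 without control library 2 and 15 without either Rbpj-deleted library. In monocyte/macrophage-like cells the Rbpj-deleted count of 21 was 12 without healthy library 1, and the control count of 24 was 12 without control library 1 and 14 without healthy library 1.

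NF-kB factors and their feedback genes gave 10 of the 14 higher calls in macrophages of Rbpj-deleted tumours and 12 of the 18 in those of control tumours. Of 22 in monocyte/macrophage-like cells 10 rose in Rbpj-deleted and 12 in control tumours and none fell, with a median log2 difference of 0.88 and 1.19 against 0.01 and -0.02 over all genes. Tnip3, an A20-binding inhibitor, was at 26.82 and 23.28 CPM in Rbpj-deleted tumours, 52.4 and 27.73 CPM in control tumours, and 0.314 and 0 CPM in healthy brain (log2 difference 7.11 ± 0.66, edgeR adjusted p = 6.8e-05, and 7.88 ± 0.65, 2.93e-05). The size of that fitted difference depends on the prior count, since healthy brain gave 1 and 0 counts. Traf1, an adaptor of TNF receptor signalling, was at 31.39 and 30.01 CPM in Rbpj-deleted tumours, 61.69 and 23.77 CPM in control tumours, and 1.57 and 1.818 CPM in healthy brain (4.43 ± 0.52, adjusted p = 0.000423, and 5.02 ± 0.52, 0.000204). Nfkbie, encoding I-kappa-B-epsilon, rose by log2 2.12 ± 0.30 in Rbpj-deleted (edgeR adjusted p = 0.00106) and 2.94 ± 0.31 in control tumours (0.000137), and the kinase gene Ikbke by 4.06 ± 0.51 (0.000927) and 4.52 ± 0.52 (0.000466). Fewer genes of the set passed in microglia-like cells, where 5 of 21 rose in Rbpj-deleted and 2 of 21 in control tumours. Bcl3, an atypical I-kappa-B protein of the nucleus, rose there by 3.50 ± 0.52 (edgeR adjusted p = 0.00208) and 2.75 ± 0.55 (0.0207). Ikbke rose by 3.35 ± 0.56 (0.0039) and 2.84 ± 0.60 (0.0263).

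Genes around TNF itself were less uniform. Tnfaip2, a gene first found as TNF-induced, was at 72.16 and 55.67 CPM in microglia-like cells of Rbpj-deleted tumours, 82.88 and 41.19 CPM in those of control tumours, and 7.107 and 4.594 CPM in those of healthy brain. It rose by log2 3.56 ± 0.38 (edgeR adjusted p = 0.000734) and 3.46 ± 0.38 (0.00152) there. Its rise in monocyte/macrophage-like cells was 4.47 ± 0.84 (0.0296) and 5.54 ± 0.87 (0.0158). Rhbdf2, which encodes iRhom2 and brings ADAM17 to the cell surface, rose in microglia-like cells of Rbpj-deleted tumours by 1.69 ± 0.35 (edgeR adjusted p = 0.0134) and in monocyte/macrophage-like cells by 1.07 ± 0.30 (0.0352) and, in control tumours, 1.12 ± 0.31 (0.0329). Ltb, encoding lymphotoxin beta, rose in monocyte/macrophage-like cells by 2.0 ± 0.33 (0.00286) in Rbpj-deleted and 1.80 ± 0.33 (0.00551) in control tumours. In the macrophages of control tumours Tnfaip8 rose as well, by 1.32 ± 0.39 (0.0423).

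Beyond Ptgs2, the prostaglandin and leukotriene genes that were called in monocyte/macrophage-like cells mostly fell. There 1 of 16 rose and 4 fell in each tumour group. Of all genes, 8.14% were called higher and 5% lower in Rbpj-deleted tumours, and 9.19% and 6.06% in control tumours. The median log2 difference of the set was 0.29 and 0.28, above the 0.01 and -0.02 of all genes. The set as a whole therefore did not fall. Hpgd, the enzyme that inactivates prostaglandins, was at 110.2 and 90.44 CPM in Rbpj-deleted tumours, 76.34 and 124.8 CPM in control tumours, and 915.3 and 678.7 CPM in healthy brain (log2 difference -2.73 ± 0.32, edgeR adjusted p = 0.000298, and -2.70 ± 0.32, 0.000304). Ltc4s, the leukotriene C4 synthase, fell by 2.54 ± 0.34 (adjusted p = 0.000812) and 2.55 ± 0.35 (0.000805), and Alox5, the 5-lipoxygenase, by 2.08 ± 0.30 (0.00109) and 2.38 ± 0.35 (0.00117). Pla2g4a, the phospholipase that frees arachidonic acid for cyclooxygenase, rose by 1.27 ± 0.25 (0.00658) and 1.09 ± 0.26 (0.0157). Border macrophage markers fell with Hpgd, Ltc4s and Alox5 in these sums, as given above, and the part of the exchange of macrophage types in them was not tested. In microglia-like cells of Rbpj-deleted tumours Ltc4s fell by 1.13 ± 0.22 (edgeR adjusted p = 0.00837), Hpgds, the prostaglandin D synthase of blood cells, by 0.74 ± 0.21 (0.0449) and Alox5 by 0.86 ± 0.25 (0.0456), while the prostaglandin E2 receptor gene Ptger4 rose by 3.34 ± 0.71 (0.0131) and Ptgr1 by 1.5 ± 0.36 (0.0256). None of the 16 prostaglandin and leukotriene genes passed in microglia-like cells of control tumours.

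The Mincle set holds family and signalling genes, and few of them were called in macrophages. Of 10, 2 fell in each tumour group, where 5% of all genes were called lower in Rbpj-deleted and 6.06% in control tumours. None rose in Rbpj-deleted and 1 rose in control tumours. Clec4n, encoding Dectin-2, fell in monocyte/macrophage-like cells by 1.37 ± 0.25 in Rbpj-deleted (edgeR adjusted p = 0.00373) and 1.30 ± 0.25 in control tumours (0.00547). Clec4a2 fell by 0.94 ± 0.26 in the macrophages of control tumours (0.0303) and by 0.87 ± 0.21 in the microglia of Rbpj-deleted ones (0.0248), where Clec4a3 fell by 0.86 ± 0.23 (0.0333); 10.3% of the 31-base words of Clec4a2 occur in other genes. Of the signalling genes, Malt1 rose by 2.18 ± 0.46 in macrophages of control tumours (0.017) and Bcl10 fell by 0.99 ± 0.24 in those of Rbpj-deleted ones (0.0181). Of the genes that control AU-rich messengers, a class that includes Tnf, only Zfp36l1 passed in the 2 myeloid classes, falling by 1.39 ± 0.40 in macrophages of Rbpj-deleted tumours (edgeR adjusted p = 0.0448). No gene of the neutrophil chemokine set passed the filter. Its receptor gene Cxcr2 had 15 counts in all microglia-like and 19 in all monocyte/macrophage-like cells, Cxcl3 had 0 and 24, and Cxcl5 had 4 and 7.

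**Figure D4:**
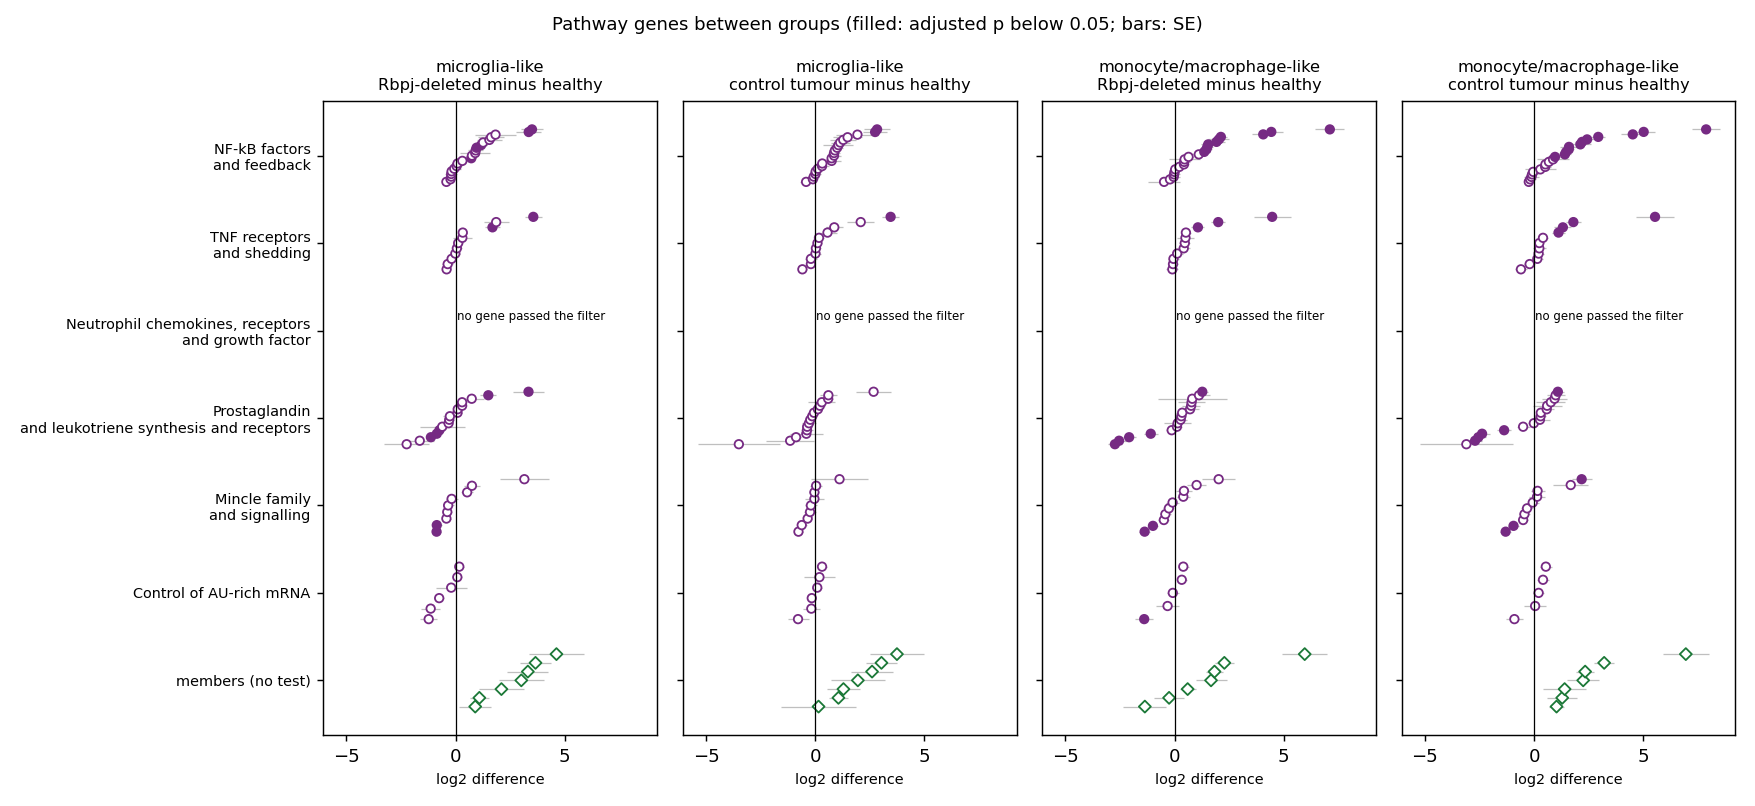
The horizontal axis is the log2 difference, tumour minus healthy, and rows are the 6 pathway sets and the members. Circles are pathway genes, filled where the edgeR adjusted p was under 0.05, diamonds are the 7 fitted members with no test, and bars are SE. Filled circles of the NF-kB set all lie above 0, and those of the prostaglandin set of monocyte/macrophage-like cells lie below 0 except for 1 gene.

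Between Rbpj-deleted and control tumours no pathway gene passed in either class. By edgeR the count was 0 of 63 in microglia-like cells, with 5 at an unadjusted p under 0.05 and 1 by DESeq2, where 1 of all 11285 genes was called (0.00886%). It was 0 of 64 in monocyte/macrophage-like cells, with 6 at an unadjusted p under 0.05 and 0 by DESeq2, where 5 of all 10390 genes were called (0.0481%). Without Rbpj-deleted library 1 the microglia-like count was 8, and without either healthy library it was 1. With 2 libraries a group these counts do not show that the tumour groups are alike.

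Set against each other in the tumour libraries, the classes differed across the list. Of 65 pathway genes 6 were higher in microglia-like and 35 higher in monocyte/macrophage-like cells (edgeR adjusted p under 0.05, 20% and 24.2% of all genes), or 11 and 31 with library totals. In the NF-kB set 13 genes were lower in microglia-like cells and none higher, led by Traf1 (log2 difference -3.87 ± 0.20, adjusted p = 3.86e-07), Tnip3 (-6.34 ± 0.36, 1.1e-06), Relb (-1.19 ± 0.13, 3.49e-05) and Birc3 (-1.33 ± 0.16, 9.67e-05). In the TNF set 7 were lower and 1 higher: the lower ones included Ripk1 (-0.82 ± 0.12, edgeR adjusted p = 0.000342) and Rhbdf2 (-0.94 ± 0.16, 0.000849), and the higher one was the sheddase gene Adam17 (0.34 ± 0.09, 0.0124). In the prostaglandin set 4 genes were higher and 6 lower. Ptgs1, the constitutive cyclooxygenase, was higher in microglia-like cells (1.77 ± 0.11, edgeR adjusted p = 1.03e-06), as was Hpgds (1.30 ± 0.14, 2.89e-05), whereas Ptgds (-5.39 ± 0.36, 1.37e-06) and the prostacyclin receptor gene Ptgir (-5.32 ± 0.84, 0.0006) were lower, both on few microglial counts. Clec4d, the close relative of Clec4e, was at 1.057 and 7.407 CPM in microglia-like and 14.84 and 61.91 CPM in monocyte/macrophage-like cells of Rbpj-deleted tumours, and at 0 and 0.429 against 33.24 and 25.75 CPM in control tumours (-5.29 ± 0.30, edgeR adjusted p = 5.96e-07). Clec4a1 (-4.43 ± 0.19, 8.01e-07) was lower too, and Card9 was the 1 gene of the Mincle set that was higher in microglia-like cells (0.42 ± 0.12, 0.0141).

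**Figure D5:**
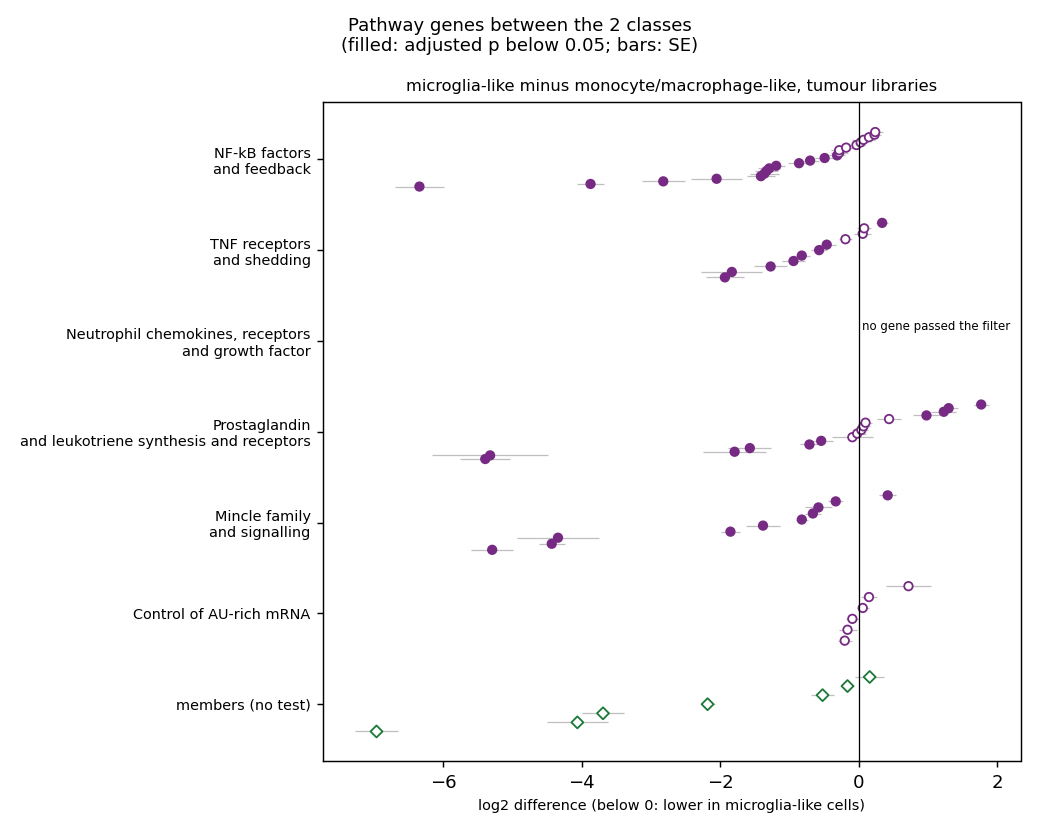
The horizontal axis is the log2 difference, microglia-like minus monocyte/macrophage-like, over the 4 tumour libraries, with symbols as in the plot of group differences. All 13 filled circles of the NF-kB set lie below 0, and the members run between -6.96 for Clec4e and 0.16 for Tnf.

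The genes most like each member were taken from 5416 genes by Pearson's r of log2(CPM + 1) over the 12 sums of microglia-like and monocyte/macrophage-like cells. These sums share libraries in pairs and fall into 2 classes and 3 groups, so the values describe the pattern only. Tnf was closest to H2-Q4 (r = 0.945), Osm (0.941) and H2-Q7 (0.935). H2-Q4 and H2-Q7 lie on chromosome 17 with Tnf, at 17:35379617-35385290 and 17:35439155-35443773. Ptgs2 was closest to Gadd45b (0.960), Cd274 (0.954) and Cxcl9 (0.949), and Clec4e to Emb (0.988), Abracl (0.984) and Anxa4 (0.982). Tnfaip3 was closest to Zc3h12a (0.918), Rasgef1b (0.912) and Rel (0.902), of which Zc3h12a and Rel are themselves NF-kB pathway genes, and Nfkbia to Ets2 (0.898), Pip5k1c (0.891) and Siah2 (0.878). Cxcl1 was closest to Cxcl2 (0.937), followed by Ripk1 (0.929) and Fam174a (0.925), whereas Cxcl2 was closest to Ddt (0.960), Capn1 (0.950) and Sri (0.950). For Ptges, near 0 in most sums, the nearest were Ncf4 (0.955), Fbxo6 (0.948) and Hcls1 (0.948), values that rest on few counts.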

How the data were processed

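Per the submitters' processing notes, the authors used kallisto 0.46.0 and bustools 0.39.3 with the mm10 build. The deposited table held UMI counts, taken as such because all values were whole numbers, for 27378 gene IDs and 17362 barcodes, and 0 columns fell outside the 6 samples. Gene symbols came from GENCODE vM21.

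A minimum of 500 genes and a maximum of 10% mitochondrial counts per barcode removed 17. Of the 119 barcode sequences in more than 1 library, copies exceeded more than 10 times in counts by another copy were dropped (256 removed, 14 sequences still shared). A barcode was mixed if markers of 2 lineages each gave 3 counts or more and reached 5% of their share in the cluster richest in them, or if markers of microglia reached 20% and those of border macrophages, monocytes or dendritic cells 10%. These 5866 barcodes were removed; their median total was 10049 counts, against 5825 for kept cells. No doublet caller was used. The mixed-barcode rule, the resolution and the naming rule were chosen after seeing the data. Cells were clustered without members and pathway genes (2000 variable genes, 30 components, 20 neighbours, Leiden resolution 1.5; scanpy 1.11.5, igraph 0.11.9). Of 28 clusters 2 stayed unnamed.

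Sums over each class of each library went through filterByExpr and TMM into robust quasi-likelihood fits of edgeR 4.0.16 (R 4.3.3), with Benjamini-Hochberg adjustment over all genes of a contrast. The class contrast had library as a block. The design, 10 or more cells per library for dendritic-like cells and 20 for T-like cells, and the named genes (all 8 members, up to 4 of smallest p per set and contrast among those with adjusted p under 0.05, and the 3 most alike per member among genes averaging 20 CPM or more) followed a written plan. The members and lists were chosen with earlier results of these data known. SE is the log2 difference over the square root of F. A limit for a count of 0 is 3 counts and covers counting error only. The fits were tested on simulated data with 1 set spread, the same for every gene, for control tumours against healthy brain. Changes of 2-fold were called in 19.4% of cases in microglia-like and 19.0% in monocyte/macrophage-like cells. Changes of 4-fold were called in 84.5% and 81.6%. False calls made up 7.34% and 3.88% of the calls. Most 2-fold changes were thus missed. The rates do not carry over to genes whose spread differs from the set one. In microglia-like cells the real fit of this contrast gave SEs of 0.70 for Tnf and 1.25 for Ptgs2. DESeq2 1.42.0, other filters and scalings, a replicate block, a library split and each library left out were alternatives. 3' counts are not scaled by transcript length, so levels are compared within a gene.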

Additional observations from a re-analysis of the deposited data

Results flagged for a closer look

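The ratio of Tnf in microglia-like over monocyte/macrophage-like cells of the same library was 2.07 and 1.24 in Rbpj-deleted tumours, against 0.566 and 0.428 in healthy brain. Every library of the first group lay on the microglial side and every library of the second on the macrophage side, and the difference between the groups was not tested. The control tumours fell on both sides.

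Cxcl1 and Ptges were also read in cells that entered no comparison. The unnamed cluster 15, 64 cells led by Vtn, Mgp, Rgs5 and Dcn, had Cxcl1 at 245.0 CPM and Ptges at 90.91 CPM. The Ptges reads, 46 counts, were spread over 23 of the 64 cells, whereas the 124 Cxcl1 counts came from 6 cells, and 86 of them from 1 cell of control library 2.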

How the results depend on the processing

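Of 1044 alternative values of the members' log2 differences, 859 moved by less than 1 SE, 183 moved further and 2 called ones turned direction. Both were Clec4e in dendritic-like cells with mixed barcodes kept, at -7.05 for Rbpj-deleted against control tumours and 4.78 for control tumours against healthy brain. Of 163 alternative counts of called genes, 110 stayed within 1.5 times. The others follow, and their cause was not tested. For pathway genes of microglia-like cells, Rbpj-deleted against healthy (14) gave 24 with no filter on low counts, 26 with mixed barcodes kept, 6 with the library split as a term, 0 without clusters lacking own markers and 6 to 18 with 1 library left out. Control against healthy (3) gave 7 by DESeq2, 11 with no filter, 10 with mixed barcodes kept, 1 without clusters lacking own markers, 6 with microglia and macrophage mixtures kept (chosen after seeing the data) and 1 to 15 with 1 library left out. Rbpj-deleted against control (0) gave 1 by DESeq2, 2 with no filter, 1 with mixed barcodes or mixtures kept and 0 to 8 with 1 library left out. In monocyte/macrophage-like cells Rbpj-deleted against healthy (21) gave 12 with the library split and 12 to 22 with 1 library left out. Control against healthy (24) gave 10 with mixed barcodes kept and 12 to 26 with 1 left out, and Rbpj-deleted against control (0) gave 1 with no filter and 0 to 0. The class contrast (41) stayed within 1.5 times in all alternatives run, at 35 to 40 with 1 library left out. For members of dendritic-like cells, Rbpj-deleted against healthy (0) gave 1 by DESeq2 or with no filter, 2 with mixed barcodes kept and 0 to 2 with 1 library left out. Control against healthy (1) gave 0 with the library split, with members among the clustering genes or with mixtures kept, 2 with mixed barcodes kept and 0 to 1 with 1 left out. Rbpj-deleted against control (1) moved in the same way and gave 0 by DESeq2. Leaving out control library 1, the only control library with enough dendritic-like cells, gave no value for either comparison with control tumours. T-like cells (0) gave 1 with no filter or mixed barcodes kept and 0 to 1 with 1 library left out. Deviations of same-numbered libraries correlated at -0.163 to 0.122, and the main fits did not pair them by replicate number. A low correlation over many genes cannot exclude a pairing that affects some genes. With a replicate block the counts, Rbpj-deleted against healthy, control against healthy and Rbpj-deleted against control, were 12, 3 and 0 in microglia-like, 20, 22 and 0 in monocyte/macrophage-like and 1, 2 and 2 in dendritic-like cells, and 0 in T-like cells. Depth limits Ptges to a few counts in both myeloid classes.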

Other observations

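The 27 neutrophil-like cells held 91155 counts in all. Clec4e was counted in 96.3% of them, Cxcl2 in 85.19% and Tnf in 22.22%, and Nfkbia stood at 3971 CPM over their sum. They numbered 2 and 6 in Rbpj-deleted tumours, 4 and 0 in control tumours, against 4 and 11 in healthy brain, so the levels were not compared between groups.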
